A study of Mus musculus with 12 samples.

Results

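The effect of losing Apc in intestine that already lacked p53 was read from 6 of the 12 arrays of the study. Of these, 3 carried RNA of small intestine from double-deficient mice, which were AhCre-positive, homozygous for a floxed Apc allele and p53 null (Cre+Apcfl/flp53-/-). The other 3 came from p53-deficient mice, which were AhCre-positive and p53 null but had intact Apc (Cre+Apc+/+p53-/-). Both groups thus shared the p53-null alleles and the Cre transgene. Both were also given β-naphthoflavone intraperitoneally, as 3 injections of 80 mg/kg, and their tissue was collected on day 5. The labels place these injections within a single day, whereas the study's methods call them daily. AhCre is a Cre recombinase under a Cyp1a promoter that β-naphthoflavone switches on in the intestinal epithelium, so Apc was removed from induced epithelial cells while p53 was missing throughout the animal. The remaining arrays, 3 of AhCre-positive control intestine and 3 of Apc-deficient intestine (Cre+Apcfl/fl, both with p53), entered the same model and give the effect of Apc loss with p53 present. Probe sets were followed if they were detected (detection p under 0.05) on all 3 arrays of either group, which held for 20768 of the 36336 tested and for 10198 of 15130 genes. Each gene was represented by 1 probe set, chosen by its mean signal over all 12 arrays.

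Apc is a scaffold of the cytoplasmic complex that marks β-catenin for degradation. When Apc is lost, β-catenin accumulates, enters the nucleus and, with TCF and LEF proteins, drives the transcription of Wnt target genes. In the small intestine this signal is normally held to the crypt base, where it maintains stem and dividing cells, and it wanes as cells move up and become absorptive enterocytes, goblet, enteroendocrine or tuft cells. p53 is the transcription factor that responds to DNA damage and other stress by driving genes of cell cycle arrest and cell death.

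Double-deficient arrays detected 21570 to 23213 probe sets and p53-deficient arrays 20508 to 21139. Unscaled signals were higher on the former by a median of 0.35 log2 units over all probe sets, which scaling each array to its geometric mean brought to -0.01, and every change below is relative to that shift. A Trp53 probe set (the gene encoding p53) read 3.53, 15.1 and 3.87 in double-deficient and 10.2, 12 and 7.96 in p53-deficient intestines, undetected on all 6 arrays, against 222 ± 45.2 in controls (mean ± SD, n = 3). A further Trp53 probe set stayed detected on 3 double-deficient and 2 p53-deficient arrays, at 121 to 241 against 313 to 428 in controls. Another Trp53 probe set read 58.3, 84.2 and 69.3 against 49.6, 17.1 and 32.1, without overlap and not called (adjusted p = 0.0676). Of 4 Apc probe sets none was called (adjusted p from 0.274 to 0.901). That with the highest signal read 581, 744 and 485 against 513, 765 and 455, and 1 of them, at 110, 142 and 136 against 103, 80.6 and 53.9, did not overlap between the groups. Whether these probe sets lie in the deleted parts of either gene was not analysed here, so they check no genotype on their own. Array gap429 stood apart. Its median signal over 19 genes of the exocrine pancreas was 1890, against 47.1 to 64.3 on the other 5 arrays compared, and of the remaining arrays only control d5wt_474u was similar (6200). Other markers of the tissue were present. Of 6 enterocyte markers all were detected on every array of both groups, with summed signals of 15600 to 27240 in double-deficient and 53290 to 58490 in p53-deficient intestines, while the tuft cell marker Dclk1 was detected on none. Arrays are named by their sample titles. Codes in the column names of the deposited tables differ between the genotypes and are not explained in the sources used here. If they mark runs, run and genotype cannot be told apart.

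Over all tested genes, 731 (4.83%) were higher and 977 (6.46%) lower in double-deficient than in p53-deficient intestines at an adjusted p under 0.05 in limma. At the level of probe sets the counts were 1679 (4.62%) and 1616 (4.45%) of 36336. Among the 10198 genes detected on all arrays of either group 655 were higher (6.42%) and 878 lower (8.61%). Of these genes, 8773 were detected in both groups, with 506 higher and 748 lower. A further 898 genes were detected throughout double-deficient intestines alone, of which 149 were higher and 2 lower, and 527 throughout p53-deficient intestines alone, of which 128 were lower and none higher, as the way these classes were formed favours. Of the called probe sets 51.0% were higher, whereas among genes more were lower than higher. The share depended on scaling, since the unscaled signals gave 3579 probe sets higher and 635 lower (84.9% higher). The total of 3295 called probe sets also depended on single arrays. It became 1106 without gap397, 1515 without gap429, 1286 without GAP940 and 1873 without GAP886, and 649 without gap429 and d5wt_474u together. This last pair was picked out only once the levels of pancreas genes were known. Wherever a call or count is given below without several arrays, each was left out singly unless they are named together. Of the 1106, 1072 were among the 3295, and of the 649, 615 were. With whole tissue, fewer cells of a type and less RNA per cell cannot be told apart. The labels do not say that each array is a separate mouse, so p-values measure the spread between these arrays, which may be technical. With 3 against 3 an exact permutation test of a single gene could not fall below p = 0.1, so calls rest on the spread pooled over genes and over all 4 genotypes.

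The largest increases were spread over transcription factors, secreted proteins and metabolic enzymes. Etv4, a transcription factor of the ETS family, read 213, 352 and 288 in the double-deficient and 15.1, 8.63 and 6.95 in the p53-deficient intestines, where it was undetected. The groups did not come near each other, and Etv4 was at least 28.8-fold higher (adjusted p = 0.000764), while its other probe set was not called. Such a bound divides the geometric mean of the group in which a gene was measured by that of the other. Signals of the other group were first raised, where lower, to the lowest signal of any probe set detected on all its arrays. Undetected genes often read above that value. For Etv4 and many others none was that low, so the bound equals the measured fold, without allowance for the spread between arrays. Gulo, the last enzyme of vitamin C synthesis in mice, went from 22.4, 23.1 and 11.7 to 303, 676 and 655 (at least 28.1-fold, adjusted p = 0.00906). Agr3, of the anterior gradient family of protein disulphide isomerases, went from 1.89, 9.95 and 6.82 to 292, 223 and 161 (at least 26.4-fold, adjusted p = 0.00224). Both genes, like Etv4, were detected on all double-deficient arrays and on no p53-deficient one. The duodenal ferric reductase gene Cybrd1 was measured on all 6 arrays, at 879, 1145 and 1368 against 36.8, 47 and 52.9, a log2 difference of 4.62 ± 0.38 (± SE, adjusted p = 0.000764). Pla2g2a, a secreted phospholipase of Paneth cells, reached 4543, 6403 and 6258 against 248, 613 and 464 (log2 3.78 ± 0.40). Anxa10, an annexin, and Tnfrsf11b, which encodes the decoy receptor osteoprotegerin, were at least 10.3-fold and 3.51 log2 units higher. Neb, the thin filament protein nebulin, and Lrfn4, a leucine-rich repeat membrane protein, were each at least 8.67-fold higher. The 14 largest increases also included Ascl2, Tnfrsf19, Psat1 and the amino acid transporter gene Slc7a5, described with their groups, and Khdc1a (at least 10.6-fold). The call of Khdc1a was lost without any of 10 single arrays, D5fl_331u, d5wt_110u, d5wt_323u, d5wt_474u, gap346, gap397, gap429, GAP901, GAP940 and GAP886, that of Slc7a5 without gap397, and that of Gulo without gap429 and d5wt_474u together.

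The 12 largest decreases were led by Gsdmc2, Gdpd2 and Dnase1 in fitted log2 difference. Car4, a carbonic anhydrase anchored in the apical membrane, read 115, 80.4 and 107 in double-deficient and 1810, 2298 and 1814 in p53-deficient intestines (log2 -4.30 ± 0.66, adjusted p = 0.00506). Gsdmc2, of the gasdermin family, fell from 90.2, 648 and 152 to 3.97, 0.972 and 2.53 and Gdpd2, a glycerophosphodiester phosphodiesterase, from 323.1, 762 and 272 to 28.9, 8.45 and 6.12. Neither was detected in double-deficient intestines, where they were at least 32.1-fold and 35.1-fold lower (adjusted p = 0.0084 and 0.00189). Lct, which encodes lactase, stood at 845, 287 and 183 against 4591, 8274 and 5687, and Asah2, the neutral ceramidase of the brush border, at 363, 230.3 and 164 against 2886, 4889 and 2916 (log2 -4.08 ± 0.69 and -3.85 ± 0.55). In each of these genes gap346, gap397 and gap429 all lay below every p53-deficient array. The others among the 12 largest were Slc5a11 and Slc5a4b (sodium-coupled transporters), Mfsd4b2, Rdh7 (a retinol dehydrogenase), Dnase1, the protease gene Prss30 and Gm5485. Their log2 differences ran from -4.98 (Dnase1) to -3.50 (Gm5485). Omitting gap397 ended the calls of Prss30, Slc5a11 and Mfsd4b2, omitting gap397, gap429 or GAP940 those of Dnase1 and Rdh7, and omitting gap397, GAP940 or GAP886 that of Gm5485. The calls of Lct and Slc5a4b were lost only without gap429 and d5wt_474u together.

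**Figure D1:**
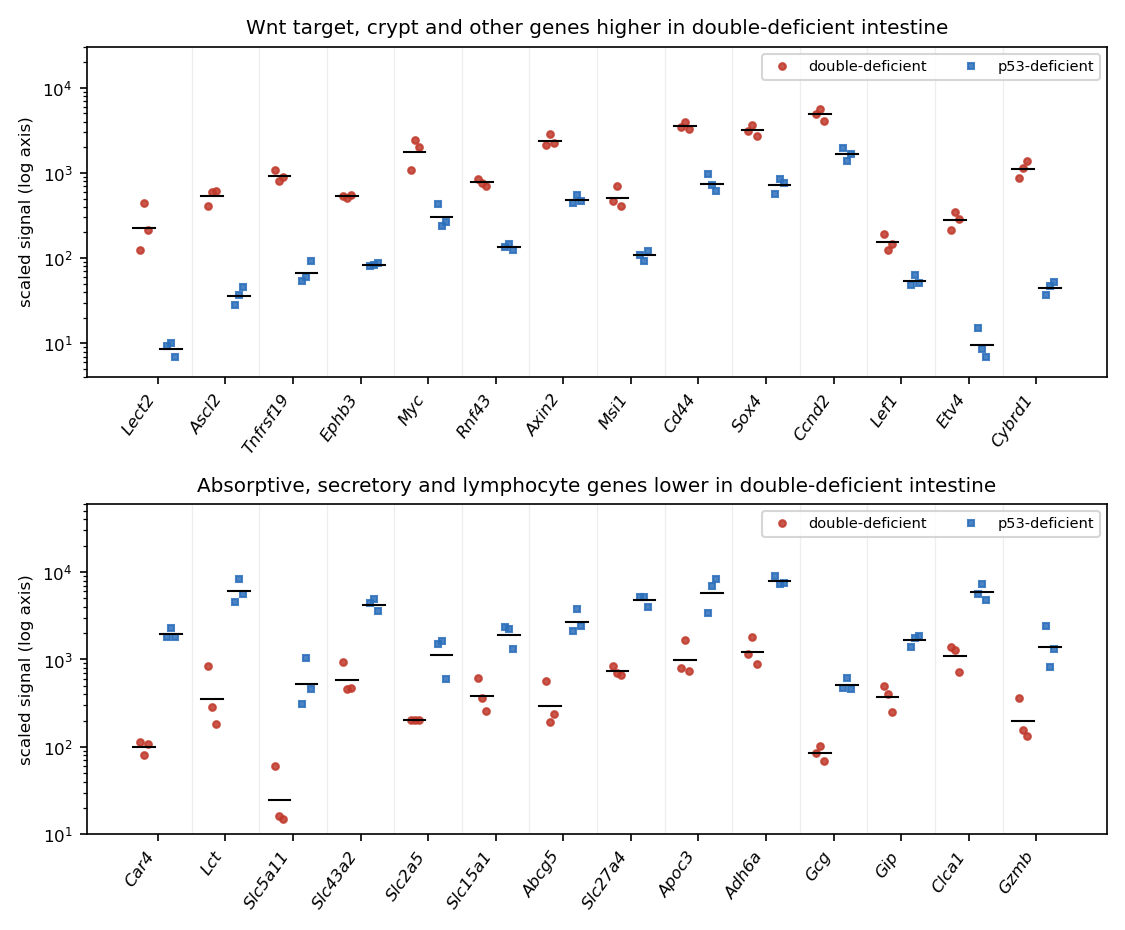
Scaled signal (log axis) of genes higher (top) and lower (bottom) in double-deficient intestines, with 1 point per array and a bar at the geometric mean of the 3 arrays of a genotype. No double-deficient array overlapped a p53-deficient one for any of the genes drawn, and the gap was wide for Etv4 (log2 4.85) and Car4 (-4.30) and narrow for Lef1 (1.50).

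Most Wnt target genes rose. Of 26 measured, 17 were called higher and none lower, against 4.83% and 6.46% of all genes. On every double-deficient array 21 were higher than on any p53-deficient one (17.4% of all genes were). Without a call, 1 was lower in the same way (21.7% of all genes were), and 2 had a log2 difference below 0. Their median log2 difference was 1.53, against -0.06 over all genes tested. Axin2, a scaffold that feeds back on the pathway, read 2123, 2841 and 2251 in double-deficient and 438, 548 and 471 in p53-deficient intestines (log2 2.30 ± 0.25, adjusted p = 0.00154). Rnf43, a ubiquitin ligase that removes Wnt receptors, read 850.2, 762 and 709.9 against 136, 145 and 123 (log2 2.52 ± 0.28, adjusted p = 0.00164). Nkd1 and Notum, both antagonists of Wnt signalling, were 2.24 and 2.26 log2 units higher, so feedback inhibitors were among the genes that rose. Ephb3, a receptor that positions cells along the crypt, was undetected in p53-deficient intestines at 79.8, 83.8 and 88 and read 537, 502 and 554 with Apc loss (at least 6.33-fold, adjusted p = 0.0014). The replicates of Ephb3 were close in both groups. Cd44, an adhesion receptor, stood at 3439, 3956 and 3303 against 962, 716 and 613 (log2 2.24 ± 0.23), and Lef1, itself a partner of β-catenin, at 191, 126 and 147 against 48.9, 63.8 and 50.5 (log2 1.50 ± 0.20). Lect2, a secreted leukocyte chemotactic factor, was the most changed of the list. It read 123, 449 and 214 against 9.3, 9.95 and 6.82, was detected on 2 double-deficient arrays and no p53-deficient one, and so lay outside the detected genes (at least 26.5-fold, adjusted p = 0.00274). Of the 9 targets without a call, Sp5, a transcription factor, was 2.10 log2 units higher (adjusted p = 0.0736) and the cyclin gene Ccnd1 0.14 units. The call of Notum was lost without gap429 or GAP940 and that of Nkd1 without gap429 and d5wt_474u together, and no other gene described here lost its call in any alternative.

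Among 37 measured components of the pathway's own machinery (Wnt ligands, frizzled receptors, kinases, TCF factors and others) 2 were called higher (5.41%) and 1 lower (2.7%), beside 4.83% and 6.46% of all genes. Ctnnb1, encoding β-catenin, differed by -0.17 log2 units (adjusted p = 0.646), Tcf7l2, its main partner in intestine, by 0.17 (0.742) and the receptor gene Fzd7 by 0.15 (0.652). The receptor gene Fzd5 was lower, at 880.5, 734 and 546 against 1653, 1855 and 1376 (log2 -1.19 ± 0.24, adjusted p = 0.0147). That call was lost without gap397, gap429 or GAP940 and with unscaled signals. The other probe set of Fzd5 was not called. Of the 2 called higher, Wnt3 was undetected in both groups and Csnk1e, a casein kinase, lost its call in 14 of the 21 other settings tried, which include leaving out D5fl_444t, d5wt_110u, d5wt_323u, d5wt_474u, gap346, gap397, gap429, GAP901, GAP940 and GAP886. The call of Wnt3 was lost without gap397.

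Genes of crypt stem and progenitor cells rose in the same samples, with 12 of 16 measured called higher and none lower (median log2 1.39). Several are Wnt targets too. Ascl2, the basic helix-loop-helix factor that sets stem cell identity in the crypt, read 413, 602 and 605 against 28.3, 37.3 and 45.7 (log2 3.87 ± 0.35, adjusted p = 0.00133). Tnfrsf19, a receptor of the TNF receptor family found at the crypt base, read 1087, 805 and 897 against 54, 60.5 and 91.8 (log2 3.78 ± 0.35, adjusted p = 0.00133). Both were more than 3 log2 units higher, well above the rest of the list. Msi1, an RNA-binding protein, Cdca7, a MYC-responsive gene, and Sox9, a crypt transcription factor, were 2.25, 1.95 and 1.90 units higher. Lgr5, the receptor that marks cycling stem cells, rose by 1.40 units, from 159, 230.4 and 247 to 573, 522 and 559 (adjusted p = 0.00492). Olfm4, a further marker of these cells, differed by 0.20 units and Smoc2 by 0.44, neither called, so the markers did not rise alike. Summed signals of Lgr5, Olfm4, Ascl2 and Mki67 overlapped, at 11140, 10970 and 8047 in double-deficient and 8904, 6743 and 8022 in p53-deficient intestines. All the called genes named here kept their calls in each alternative.

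Promoter windows of several of these Wnt targets hold the TCF/LEF core. CTTTGAT or CTTTGTT, searched on both strands in RefSeq windows of GRCm38.p6 from 250 bases before to 50 after the start site, was in 5 of the 21 windows that the table holds for 14 of the 26 Wnt targets (23.8%), in 7.35% of windows of genes called higher and in 7.18% of those of all genes tested. The stretches below are shown because the matches belong to Lect2 and Tnfrsf19, among the most changed targets. They lie at chr13:56548539-56548688, minus strand, and chr14:61038088-61038237, minus strand, and are written 5′ to 3′ along the gene, with the match in capitals. Both matches read ATCAAAG, the reverse complement of CTTTGAT, and start 32 and 202 bases before the start site.
Lect2: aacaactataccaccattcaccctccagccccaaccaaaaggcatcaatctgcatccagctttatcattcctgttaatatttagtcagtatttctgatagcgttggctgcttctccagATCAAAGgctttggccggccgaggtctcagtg
Tnfrsf19: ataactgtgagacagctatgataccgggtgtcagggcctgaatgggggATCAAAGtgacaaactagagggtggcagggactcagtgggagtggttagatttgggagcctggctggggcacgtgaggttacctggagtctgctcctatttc

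Of 26 measured transcription factors of the epithelium 8 were called higher (30.8%, beside 4.83% of all genes). Lower calls numbered 2 (7.69%), near the 6.46% of all genes. Sox4, a SOX factor of progenitor cells, stood at 3139, 3695 and 2744 against 566, 841 and 761 (log2 2.15 ± 0.24, adjusted p = 0.0016). Foxa1, a forkhead factor, and Ehf, of the ETS family, were 1.87 and 1.63 units higher. The endodermal factor gene Sox17, undetected in p53-deficient intestines, was at least 6.36-fold higher and lost its call without gap397, gap429, GAP901 and GAP886. The 2 called lower act in differentiated cells, but so few calls say little of such factors. Klf4, a factor of goblet and villus cells, read 839, 773 and 676 against 3008, 3235 and 2818 (log2 -1.99 ± 0.29, adjusted p = 0.00415), and Hnf4g, a nuclear receptor of enterocytes, 250.2, 171 and 145 against 1347, 966 and 606 (log2 -2.33 ± 0.44), a call lost without gap429 and d5wt_474u together. Of 3 Hnf4g probe sets 1 was called. Cdx2 and Hnf4a, which also direct enterocyte genes, differed by -0.17 and -0.45 units and were not called.

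The MYC network shifted on both sides. Myc, the proto-oncogene and Wnt target, read 1087, 2456 and 2029 in double-deficient and 435, 237 and 268 in p53-deficient intestines (log2 2.54 ± 0.35, adjusted p = 0.00334). Mxd1 and Mxi1, which compete with MYC for its partner MAX, were lower. Mxd1 stood at 984, 677 and 629.8 against 4827, 5204 and 4128 (log2 -2.65 ± 0.33), while Mxi1 fell by 1.62 log2 units. Max itself differed by -0.52 units and was not called. Ccnd2, a D-type cyclin, stood at 4924, 5679 and 4087 against 1956, 1391 and 1667 (log2 1.55 ± 0.21), and its partner kinase gene Cdk6 and the S phase factor gene E2f1 were 1.38 and 1.49 units higher. Rb1, the retinoblastoma protein that restrains E2F factors, fell by 1.50 units (adjusted p = 0.00784), a call lost without gap429 and d5wt_474u together. In all, 6 of 22 genes of this list were called higher and 4 lower.

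Of 8 CDK inhibitor genes, Cdkn2b alone was called. It encodes p15INK4b, an inhibitor of CDK4 and CDK6, and read 174, 136 and 124 in double-deficient against 1228, 1354 and 1292 in p53-deficient intestines (log2 -3.17 ± 0.39, adjusted p = 0.0023). The replicates were tight in both groups and the call held in every alternative. Cdkn1a, encoding p21, read 1162, 1239 and 937 against 2396, 1607 and 1522 (log2 -0.71, adjusted p = 0.183), and Cdkn2a differed by -0.45 units (0.246).

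Genes of DNA replication rose, though the count of calls was unsteady. Of 34 measured, 16 were called higher and none lower, 28 were higher without overlap, and the median log2 difference was 0.95. Mcm7, a subunit of the replicative helicase, read 1426, 2465 and 1944 against 621, 430.1 and 596 (log2 1.81 ± 0.27, adjusted p = 0.00492). Orc6, of the complex that marks origins, read 513, 565 and 423 against 184, 138 and 150.3 (log2 1.67 ± 0.21, adjusted p = 0.0026), and Mcm2 was 1.43 units higher. These 3 were called in every alternative, by the probe set chosen. Mcm2 has a second probe set that was not called, and the median log2 difference over both was 0.79. The count of 16 became 10, 4, 9, 4 and 8 without gap346, gap397, gap429, GAP940 and GAP886 respectively, and 3 without gap429 and d5wt_474u. The count was 8 with the compared genotypes alone, 27 over detected probe sets only, 28 with unscaled signals, 25 with signals under 20 set to 20 and 26 with a variance trend. The medians stayed between 0.80 and 1.06 with each array left out. Of 31 mitotic genes 5 were called higher and none lower (median log2 0.83). These were Nusap1 and Racgap1 (1 of 2 probe sets called), Bub1b (1 of 3), Tpx2 (1 of 4) and Mad2l1, of the spindle and its checkpoint, at 0.88 to 1.07 units. This count became 1, 0, 1, 8, 0, 0, 3, 9, 2 and 0 without gap346, gap397, gap429, GAP901, GAP940, GAP886, D5fl_331u, d5wt_110u, d5wt_323u and d5wt_474u respectively. It was 0 with the compared genotypes alone, 9 in the deposited normalised table, 16 over detected probe sets only, 24 with unscaled signals, 0 with no screen, 8 with quantile normalisation, 15 with signals under 20 set to 20, 15 with a variance trend and 0 without gap429 and d5wt_474u together.

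An E2F motif was searched as TTTCGCGC or TTTGGCGC on both strands of the same promoter windows. It was in 9 of 32 windows of 28 replication genes (28.1%), in 3.61% of windows of all genes called higher, in 1.47% of those called lower and in 1.34% of those of all genes tested. Mcm6 and Mcm5, further subunits of the helicase, are shown because their matches all lie before the start site. They were 0.82 and 0.99 log2 units higher, and both calls were lost without gap346, gap397, gap429, GAP940 and GAP886 and without control d5wt_474u, that of Mcm5 also without Apc-deficient D5fl_331u. The stretches lie at chr1:128359716-128359875, minus strand, and chr8:75109309-75109448, plus strand. Capitals mark the matches, which in Mcm6 start 110, 106 and 47 and in Mcm5 153 and 149 bases before the start site. At each gene the first pair of matches overlaps on opposite strands. Both genes were chosen after their values were seen.
Mcm6: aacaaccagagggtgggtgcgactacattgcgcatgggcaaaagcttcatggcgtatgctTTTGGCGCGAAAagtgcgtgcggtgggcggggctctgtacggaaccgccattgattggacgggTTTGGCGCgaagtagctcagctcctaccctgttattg
Mcm5: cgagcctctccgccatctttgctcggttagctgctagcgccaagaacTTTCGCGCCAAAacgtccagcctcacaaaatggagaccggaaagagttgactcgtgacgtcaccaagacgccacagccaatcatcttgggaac

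DNA damage response genes, which dividing cells also express, were called higher for 9 of 23 and lower for none (median log2 0.87). Xrcc5, which encodes the Ku80 end-binding protein, read 272, 278 and 181 against 86.6, 75.8 and 85.6 (log2 1.54 ± 0.25, adjusted p = 0.00677). Chek1, the checkpoint kinase, was 1.62 units higher, and Brca1, of homologous recombination, 1.18. H2ax, the histone phosphorylated at double strand breaks, differed by 0.67 (adjusted p = 0.128). The count of 9 became 4, 2 and 3 without gap346, gap397 and GAP940 respectively, and was 18 with unscaled signals and 1 without gap429 and d5wt_474u together. The call of Chek1 was lost without gap397 and GAP940 and that of Brca1 without gap346, gap397, gap429 and GAP940, and both calls without gap429 and d5wt_474u together, while Xrcc5 kept its call in every alternative.

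Ribosome biogenesis was among the groups with most calls. Of 35 measured genes of ribosomal RNA transcription, processing and subunit assembly, 20 were called higher and none lower, with a median log2 difference of 1.23. Nop58 and Nop56, core proteins of the particles that methylate ribosomal RNA, read 1195, 1252 and 1090 against 465, 326 and 366 and 2034, 2476 and 1696 against 936, 508 and 559.5 (log2 1.63 ± 0.22 and 1.67 ± 0.29). Nop16 and Rrp1b, nucleolar proteins, were 1.78 and 1.70 units higher, and Wdr43, a small subunit factor, 1.24. All 5 were called in each alternative. The count of 20 became 8, 12, 7 and 13 without gap397, gap429, GAP940 and GAP886 respectively, and 5 without gap429 and d5wt_474u. Of 22 genes of the ribosomal proteins themselves 1 was called higher (4.55%, near the 4.83% of all genes) and none lower (median log2 0.22). That one was Rps6, a small subunit protein, at 689.9, 794 and 605 against 256, 263 and 187 for the probe set chosen (log2 1.57 ± 0.26), while its other probe set was not called. The medians of the 2 lists were not tested against each other.

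CACGTG, the E-box that MYC and MAX bind, was in 8 of 39 promoter windows of the ribosome biogenesis genes (20.5%), in 12.9% of windows of genes called higher, in 9.32% of those called lower and in 9.08% of those of all genes tested. Rrn3, a factor of RNA polymerase I, and Utp18, a small subunit processing factor, hold it before the start site and are shown for that reason, chosen after their values were seen. They were 1.01 and 1.14 log2 units higher. The call of Rrn3 was lost without gap346, gap397, gap429, GAP940 and GAP886 and that of Utp18 without gap397, GAP940 and GAP886. The stretches lie at chr16:13780464-13780678, plus strand, and chr11:93885767-93885886, minus strand, with the E-box in capitals, starting 215 and 48 bases before the start site in Rrn3 and 20 bases before it in Utp18.
Rrn3: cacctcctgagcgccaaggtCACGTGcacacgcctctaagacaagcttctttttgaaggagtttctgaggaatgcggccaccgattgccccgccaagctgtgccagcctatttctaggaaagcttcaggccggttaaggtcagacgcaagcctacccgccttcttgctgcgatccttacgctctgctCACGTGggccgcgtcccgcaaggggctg
Utp18: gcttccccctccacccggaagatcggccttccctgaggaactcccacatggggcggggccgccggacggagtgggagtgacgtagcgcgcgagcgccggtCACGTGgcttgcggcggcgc

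Enzymes that make serine, one-carbon units and purines rose in a group, 11 of 21 being called higher and none lower (median log2 1.47). All steps of serine synthesis from a glycolytic intermediate were among them. Phgdh, which commits carbon to that route, read 1550, 2390 and 1788 against 504, 186 and 364 (log2 2.53 ± 0.45, adjusted p = 0.00855), Psat1, the aminotransferase that follows, 1224, 2153 and 1691 against 287, 115 and 177 (log2 3.19 ± 0.51), and Psph, the last enzyme, rose by 2.11 units. Mthfd1l, of mitochondrial folate metabolism, stood at 483, 713 and 659.5 against 142, 94.8 and 118 (log2 2.39 ± 0.32), and Ppat, Paics and Asns, of purine and asparagine synthesis, were 2.06, 1.49 and 1.68 units higher. Slc7a5, which imports large neutral amino acids, went from undetected at 56.9, 86.4 and 71.7 to 536, 1311 and 792 (at least 11.6-fold, adjusted p = 0.0137). It was the member most dependent on 1 array among those named here, its call being lost without gap397, and the count of 11 became 7 without gap397 and was 17 with unscaled signals. Slc7a11 and Mthfd2 differed by 1.50 and 1.47 units without a call.

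Genes of absorption fell together. Of 24 measured transporters of sugars, amino acids, peptides, phosphate and anions, 16 were called lower and none higher (median log2 -1.99). The fructose transporter gene Slc2a5 read 203, 203.8 and 203 in double-deficient and 1497, 1614 and 596 in p53-deficient intestines (log2 -2.48 ± 0.37, adjusted p = 0.00464). Slc5a1, the sodium glucose cotransporter SGLT1, and Slc2a2, the basolateral glucose transporter, fell by 2.02 and 2.03 units. The peptide transporter gene Slc15a1 stood at 619, 362 and 256 against 2329, 2210 and 1310 (log2 -2.29 ± 0.40) and Slc43a2, an amino acid transporter, at 936, 456 and 478 against 4387, 4891 and 3581 (log2 -2.85 ± 0.36). Slc3a1 and Slc7a9, the 2 chains of the cystine and dibasic amino acid transporter, fell by 2.13 and 1.72 units. No double-deficient array reached the lowest p53-deficient one in these genes. Exceptions were few: the folate transporter gene Slc46a1 differed by -0.08 units and Slc10a2, the ileal bile acid transporter, by 1.05, neither called. The call of Slc2a2 was lost without GAP940 and those of Slc15a1 and Slc2a2 without gap429 and d5wt_474u together. That alternative left 7 of the 16 calls.

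Brush border enzymes and structural proteins were called lower for 11 of 19 (median log2 -1.38). Beside Lct these were peptidases such as Ace, Mme and Enpep (-2.94, -2.83 and -2.52 log2 units), the disaccharidase genes Treh and Mgam (-1.89 and -1.64) and Cdhr2, of the links between microvilli (-1.25). Treh, which cleaves trehalose, read 661, 725 and 641 against 2105, 3566 and 2075 (adjusted p = 0.00994). The count of 11 became 5, 5 and 4 without gap397, gap429 and GAP940 respectively, and 2 without gap429 and d5wt_474u. Calls of Mgam and Cdhr2 held in every alternative. That of Treh was lost only without gap429 and d5wt_474u, that of Ace without gap397 and GAP940, that of Enpep without gap397, gap429 and GAP940 and that of Mme without gap397, gap429, GAP940 and GAP886.

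Of 24 genes of fat and sterol absorption 13 were called lower and none higher (median log2 -1.50). Abcg5, which returns sterols to the lumen, read 561, 194 and 239 against 2145, 3762 and 2441 (log2 -3.19 ± 0.47, adjusted p = 0.00454), and Npc1l1, which takes cholesterol up, 956, 799 and 803 against 2817, 4921 and 3602 (log2 -2.12 ± 0.29, adjusted p = 0.00358). Genes for both directions of sterol transport were thus lower. Slc27a4, a fatty acid transport protein, stood at 849, 708 and 670.5 against 5156, 5249 and 4014 (log2 -2.69 ± 0.35), while Dgat2, of triglyceride synthesis, and Mttp, which loads lipid onto chylomicrons, fell by 1.91 and 1.68 units. The apolipoprotein genes Apoc3 and Apoa4 fell by 2.56 and 2.06 log2 units. Fatty acid binding protein genes Fabp1 and Fabp2 differed by -1.39 and -0.90 units without a call. Counts became 8, 7 and 7 without gap397, gap429 and GAP940 respectively, and 5 without gap429 and d5wt_474u. The call of Apoa4 was lost without gap429 or GAP940 and those of Apoc3, Mttp and Apoa4 without gap429 and d5wt_474u together.

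Enzymes of drug and xenobiotic metabolism were called lower for 14 of 30 and higher for none (median log2 -1.49). Ugt2b5, which attaches glucuronic acid to steroids and drugs, stood at 4.19, 0.972 and 0.704 against 77.2, 179 and 76.5 and was at least 15.8-fold lower (adjusted p = 0.0014). It was detected on 2 p53-deficient arrays and no double-deficient one. Adh6a, an alcohol dehydrogenase, read 1150, 1817 and 877 against 9095, 7258 and 7540 (log2 -2.69 ± 0.33, adjusted p = 0.0023) and Abcg2, an efflux pump, fell by 1.74 units. These 3 kept their calls in every alternative, while the count of 14 became 8, 4, 4, 7, 4, 6 and 9 without gap346, gap397, gap429, GAP901, GAP940, GAP886 and d5wt_474u respectively, and was 6 with unscaled signals, 9 with no screen and 3 without gap429 and d5wt_474u together. Cyp1a1, the P450 gene that β-naphthoflavone induces, varied widely among replicates, at 230.5, 59.96 and 72.7 against 3691, 96.9 and 361. The groups overlapped and it was not called (adjusted p = 0.344). None of 9 genes of the aryl hydrocarbon receptor pathway was called in limma, 3 having an unadjusted p under 0.05.

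In energy metabolism, 6 of 19 genes of fatty acid oxidation were called lower, all by less than 1.3 log2 units, and each of these calls was lost without gap346, gap397, gap429 or GAP940 and with unscaled signals. Pfkfb3, which makes the activator of phosphofructokinase, was lower at 167, 168 and 95.1 against 458, 467 and 519 (log2 -1.79 ± 0.30, adjusted p = 0.00658), and its second probe set was not called. In glycolysis and gluconeogenesis 2 more of 22 were called lower, Fbp1, a call lost without D5fl_331u, D5fl_444t, D5fl_131u, d5wt_323u, gap346, gap397, gap429, GAP940 and GAP886, and Pfkp, lost without gap346, gap397, gap429, GAP901, GAP940 and GAP886. Of 3 Pfkp probe sets 1 was called. Of 25 genes of the mitochondrial respiratory chain limma called none, with 5 at an unadjusted p under 0.05 (median log2 -0.40), and of 18 of cholesterol synthesis none, with 3.

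**Figure D2:**
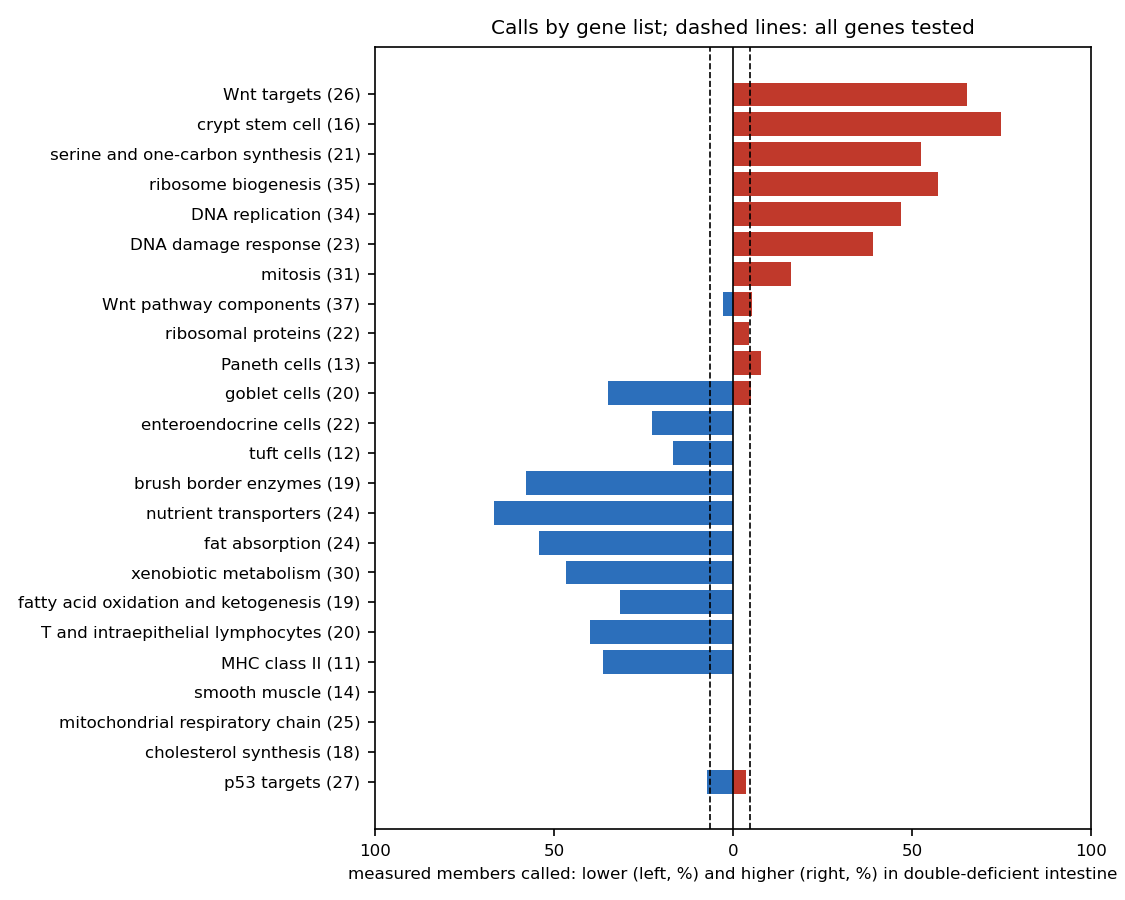
Share (%) of the measured members of each gene list (number in brackets) called higher, to the right, or lower, to the left, in double-deficient than in p53-deficient intestines, with dashed lines at the shares over all genes tested (4.83% and 6.46%). Wnt target, stem cell and ribosome biogenesis genes had calls to the right alone (17 of 26, 12 of 16 and 20 of 35) and transporter, fat absorption and brush border genes to the left alone (16 of 24, 13 of 24 and 11 of 19).

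The secretory lineages did not move as one. Of 20 goblet cell genes 7 were called lower, and Agr3 higher as described. Clca1, a secreted protein of goblet cell mucus, read 1402, 1299 and 711 against 5661, 7344 and 4839 (log2 -2.43 ± 0.47, adjusted p = 0.0124), and Agr2, needed for mucin folding and next of kin to Agr3, 702, 1070 and 633 against 3995, 1971 and 2484 (log2 -1.79 ± 0.34, adjusted p = 0.0112). Agr2 and Agr3 thus differed in direction. Muc2, the main gel-forming mucin, and Muc13, a membrane mucin, fell by 1.30 and 1.33 log2 units, whereas Atoh1 and Spdef, factors of the lineage, differed by -0.23 and -0.08. The calls of Clca1 and Muc2 were lost without GAP940, and all 7 without gap429 and d5wt_474u together, while without gap397, gap429 or GAP940 4, 4 and 2 remained in number.

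Hormone genes of enteroendocrine cells were lower for 5 of 22 members and higher for none. Gcg, encoding proglucagon, read 85.2, 103 and 68.3 against 468, 612 and 462 (log2 -2.60 ± 0.29, adjusted p = 0.00164), Gip, the incretin of the proximal gut, 499, 406 and 248 against 1387, 1775 and 1857 (log2 -2.17 ± 0.36, adjusted p = 0.00651) and Sst, somatostatin, was at least 3.16-fold lower, being undetected in double-deficient intestines. All 3 were called in every alternative. General markers of the lineage moved less. The granule protein genes Chga and Chgb differed by -0.73 and -0.76 log2 units, and Neurog3, which specifies the lineage, by 1.01, none of them called. The other 2 calls were Cck, lost without gap346, gap429, GAP940 and GAP886, and Tac1, lost without D5fl_331u, D5fl_131u, d5wt_323u, d5wt_474u, gap346, gap397, gap429, GAP901, GAP940 and GAP886, and counts became 3, 3 and 3 without gap429, GAP940 and GAP886 respectively. They were 10 over detected probe sets only, 3 with unscaled signals, 8 with a variance trend and 3 without gap429 and d5wt_474u together.

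Of 22 listed Paneth cell genes 13 were measured, and the defensin genes Defa5 and Defa24 were not among them. Of the 13, 1 was called, Pla2g2a (7.69%, beside 4.83% of all genes). The study lists cryptdin genes as higher in double-deficient intestines than in controls, which is another comparison. Lyz1, the lysozyme of these cells, read 198, 225 and 189 against 189, 248 and 317 (log2 -0.27, adjusted p = 0.504), with overlapping replicates. The matrix protease gene Mmp7 was 0.95 units higher without a call. With p53 present 4 of the 13 were called higher, among them Mmp7 and Itln1. Mmp7 averaged 2328 in p53-deficient and 987 in control intestines, and Itln1 9142 and 2618. For neither did the difference of the effects pass (adjusted p = 0.178 and 0.236 in limma). Of 12 tuft cell genes 2 were called lower (16.7%, beside 6.46% of all genes), too few to say much of these cells. The call of Trpm5, the taste transduction channel (log2 -1.67 ± 0.34), was lost without gap397 and gap429. That of Siglecf was lost without d5wt_323u, gap346, gap397, gap429, GAP901, GAP940 and GAP886. In the Reg family of secreted lectins 1 of 7 was called lower (14.3%). This was Reg3a, which fell by 2.05 log2 units, a call lost without gap346, gap397, gap429, GAP940 and GAP886. The other 6 measured were not called. Of them Reg1, also listed with exocrine pancreas genes, read 831, 1234 and 3161 against 7576, 5984 and 6131, without overlap. Its log2 difference was -2.14 (adjusted p = 0.0546 in limma).

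Genes of T cells and intraepithelial lymphocytes were lower for 8 of 20 and higher for none (median log2 -1.42). Gzmb, the cytotoxic protease granzyme B, read 360.5, 157 and 134 against 2407, 813 and 1326 (log2 -2.81 ± 0.51, adjusted p = 0.00979). Trgv4, a variable segment of the γδ T cell receptor, stood at 44.2, 48 and 27.6 against 246, 177 and 142 (log2 -2.24 ± 0.41) and Gzma, granzyme A, at 1181, 854 and 505 against 5787, 2922 and 2929 (log2 -2.20 ± 0.45). The summed signal of the markers Cd3e, Cd3g and Cd8a was 176 to 412 in double-deficient and 492 to 943 in p53-deficient intestines, and Cd3e was undetected in the former. Counts became 2, 2, 3 and 3 without gap397, gap429, GAP901 and GAP940 respectively, and were 5 with the compared genotypes alone and 0 without gap429 and d5wt_474u together. The call of Gzma was lost without gap397 or gap429, and all 3 without gap429 and d5wt_474u. Of 11 genes of MHC class II 4 were lower, led by H2-Eb1 (-1.70 units, lost without d5wt_110u, d5wt_323u, d5wt_474u, gap346, gap397, GAP901, GAP940 and GAP886), and this count became 1, 0, 2, 1, 0 and 2 without gap346, gap397, gap429, GAP901, GAP886 and d5wt_474u respectively. It was 2 with the compared genotypes alone, 0 with unscaled signals, 2 with no screen and 0 without gap429 and d5wt_474u together. Irf1, an interferon-induced factor that drives antigen presentation, read 1311, 1013 and 1018 against 4075, 3113 and 4266 (log2 -1.77 ± 0.25, adjusted p = 0.00367) and was called in every alternative. It was 1 of 3 called lower among 25 interferon genes (12%, beside 6.46% of all genes).

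Genes of other cells of the gut wall were counted in the same way, beside the 6.46% of all genes called lower. Among 20 myeloid genes 2 were lower (10%), Csf1r and Adgre1, and among 15 of B and plasma cells 2 (13.3%), Ighm and Mzb1. So few calls say little of these cell types. Each of these 4 calls was lost without GAP940, that of Csf1r also without gap397, gap429 or GAP901, that of Adgre1 without gap397, gap429 or GAP886, that of Ighm without D5fl_331u, d5wt_323u, gap346, gap397, gap429, GAP901, GAP940 and GAP886, and that of Mzb1 without GAP886. Of 14 smooth muscle genes limma called none, 1 having an unadjusted p under 0.05, and of 13 enteric nervous system genes none, with 2. Of 22 genes of fibroblasts and endothelium 1 was called (4.55%), Tek, an endothelial receptor (-1.23 log2 units), whose call was lost with unscaled signals and without gap429 and d5wt_474u together. Summed signals of Des, Myh11 and Actg2, markers of smooth muscle, ran from 3028 to 4031 in double-deficient and from 815 to 3759 in p53-deficient intestines. Those of 2 measured B cell markers were 153.7, 148.5 and 610.7 on gap346, gap397 and gap429, against 402.9, 295.4 and 232.1 in p53-deficient intestines. The groups thus overlapped for B cell markers, with gap429 above all 5 others. Among the 19 exocrine pancreas genes 1 was called, or 5.26% (Spink1, lower, lost without d5wt_323u, gap346, gap397, gap429, GAP940 and GAP886), and their median log2 difference of 1.14 became -0.49 without gap429.

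Apc loss was next set beside its effect where p53 was present, in Apc-deficient against control intestines, which share no array with the comparison above. There 2840 genes (18.8%) were higher and 1830 (12.1%) lower. Over all probe sets the median of Apc-deficient minus control was -0.67 log2 units before scaling and 0.002 after it. Counts and differences with p53 present are relative to that shift, which was opposite in sign to that of the p53-null pair (0.35). Across the 10198 detected genes the 2 effects correlated at 0.771 (Pearson's r, genes not being independent replicates) and had the same sign in 74.7%. Of the 655 genes called higher without p53, 649 were also higher with p53 and 580 were called so. Of the 878 called lower, 817 were lower with p53 and 490 were called. A single gene was called in opposite directions, Car2, a cytosolic carbonic anhydrase. It read 969.9, 1343 and 1843 in double-deficient and 724, 482 and 537 in p53-deficient intestines (log2 1.23 ± 0.30, adjusted p = 0.0296), and 397 ± 107 in Apc-deficient and 739.5 ± 92.1 in control intestines (mean ± SD, n = 3; log2 -0.93 ± 0.30, adjusted p = 0.0415). The difference of the effects did not pass (adjusted p = 0.125), and the call without p53 was lost without gap397, gap429, GAP940 and GAP886. Genes called higher without p53 had a median log2 effect of 1.19 there and of 1.4 with p53, and genes called lower -1.31 and -0.90. The first of each pair is of genes chosen for that effect, so the medians are not compared.

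**Figure D3:**
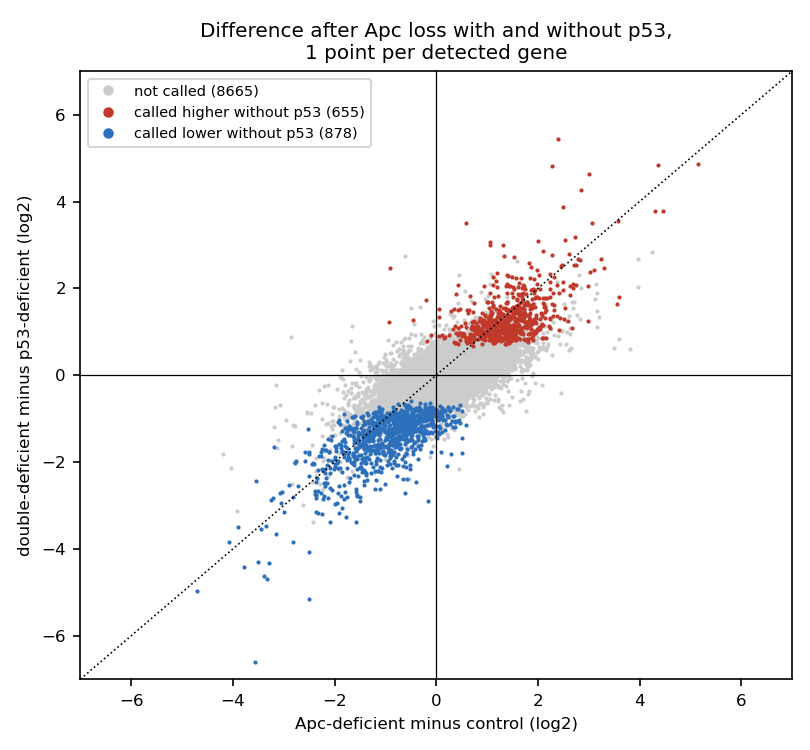
Log2 effect of Apc loss with p53 present (Apc-deficient minus control) against that without p53 (double-deficient minus p53-deficient), with 1 point per detected gene (10198), those called without p53 in colour. Most coloured points lie in the quadrants of equal sign (649 of 655 higher and 817 of 878 lower).

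The difference between the 2 effects was tested in the same model. With limma, 0 of the 10198 detected genes passed at an adjusted p under 0.05, while 1725 had an unadjusted p under 0.05, and over all tested probe sets 4 of 36336 passed and 5388 had such a p. Of these 4, given at the end, 1 had a larger effect without p53 (0.00275%) and 3 a smaller one (0.00826%). Genes with a call in 1 setting and not the other are therefore not shown to differ. Among named genes, Bmp2, a bone morphogenetic protein of the villus, read 70.8, 81.7 and 90.2 in double-deficient and 288, 270.4 and 299 in p53-deficient intestines (log2 -1.83 ± 0.25), and 275, 147 and 178 in Apc-deficient and 149, 138 and 192 in control intestines (log2 0.29 ± 0.25). The difference of the effects was -2.12 (adjusted p = 0.0987). Il1rn, the interleukin 1 receptor antagonist, rose without p53, from 67.2, 54.9 and 72.9 to 326, 231 and 274 (log2 2.09 ± 0.20, adjusted p = 0.00133), and with p53 present differed by 0.44 ± 0.20 (adjusted p = 0.137), the difference being 1.65 (adjusted p = 0.105). Pfkfb3 fell without p53 and differed by 0.51 with it (difference -2.30, adjusted p = 0.112). Anxa10 and Lef1 rose without p53 and differed by 0.58 and 0.44 units with it, and for neither did the difference pass (adjusted p = 0.206 and 0.193). Lists can be set side by side in the same way. Wnt targets were called higher for 17 without p53 and 21 with it of 26, DNA replication genes for 16 and 26 of 34, mitotic genes for 5 and 25 of 31, and ribosome biogenesis genes for 20 and 33 of 35, against backgrounds of 4.83% and 18.8%. In the same order, median log2 differences were 1.53 and 1.55, 0.95 and 1.11, 0.83 and 1.15, and 1.23 and 1.60. Over all genes tested the medians were -0.06 without p53 and 0.05 with it, and over detected genes -0.02 and 0.26. Lower calls went either way, against 6.46% and 12.1% of all genes. They numbered 11 and 8 of 19 for brush border and 13 and 10 of 24 for fat absorption genes. For the xenobiotic and T cell lists they were 14 and 17 of 30 and 8 and 10 of 20. Such counts do not test a difference of the effects.

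**Figure D4:**
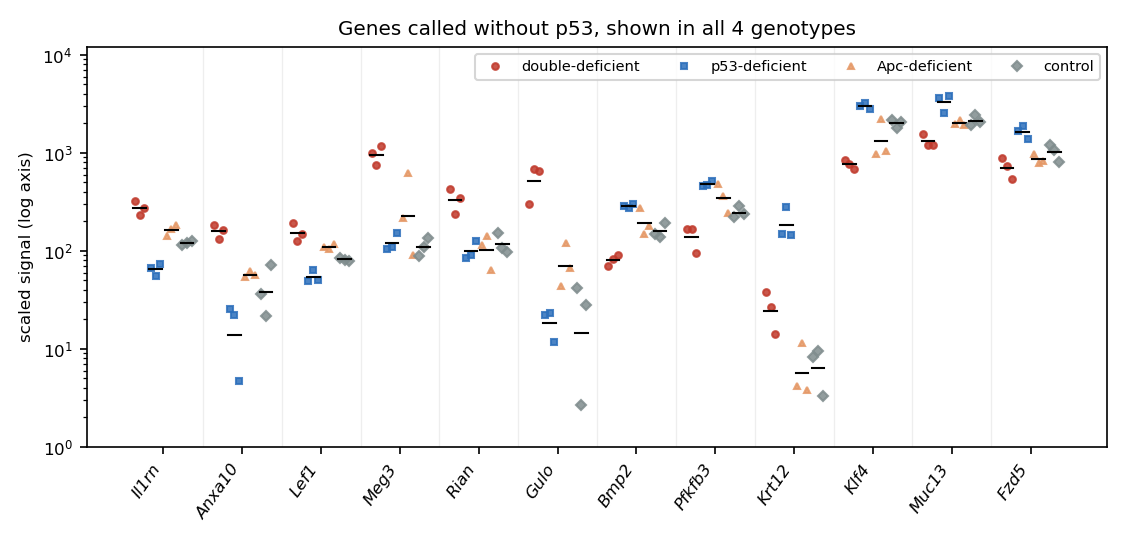
Scaled signal (log axis) in double-deficient, p53-deficient, Apc-deficient and control intestines, from left to right, for 12 genes called without p53, with 1 point per array and a bar at the geometric mean of the 3 arrays. Il1rn and Bmp2 stood apart in double-deficient against p53-deficient intestines (log2 2.09 and -1.83) by more than in Apc-deficient against control intestines (0.44 and 0.29), with no difference of effects passing an adjusted p of 0.05 among the detected genes.

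Of 27 measured p53 target genes 1 was called higher (3.7%) and 2 lower (7.41%), shares near the 4.83% and 6.46% of all genes, in mice that lack p53 on both sides of the comparison. Sesn1, a stress-induced regulator of mTOR signalling, read 149, 185 and 158 against 635, 926 and 774 (log2 -2.24 ± 0.33, adjusted p = 0.00477), and Ddit4, with a like role, 937, 2129 and 1424 against 371, 342 and 350 (log2 2.00 ± 0.29, adjusted p = 0.00419). They moved in opposite directions and were called in every alternative. The death receptor gene Fas was undetected in double-deficient intestines and detected on 1 p53-deficient array, so it lay outside the detected genes. It was at least 4.35-fold lower and lost its call without gap397, gap429, GAP901, GAP940 and GAP886. Mdm2, the ligase that degrades p53, and Siah1a differed by -0.38 and 0.00 units (adjusted p = 0.443 and 0.996).

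Since the groups also differ in the allele at Apc, the 25 measured genes on either side of Apc in the RefSeq order were counted. Of these 50 genes 33 were detected, 4 were called higher and 2 lower, and their median log2 difference was -0.08. Over all genes tested 4.83% were called higher and 6.46% lower.

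**Figure D5:**
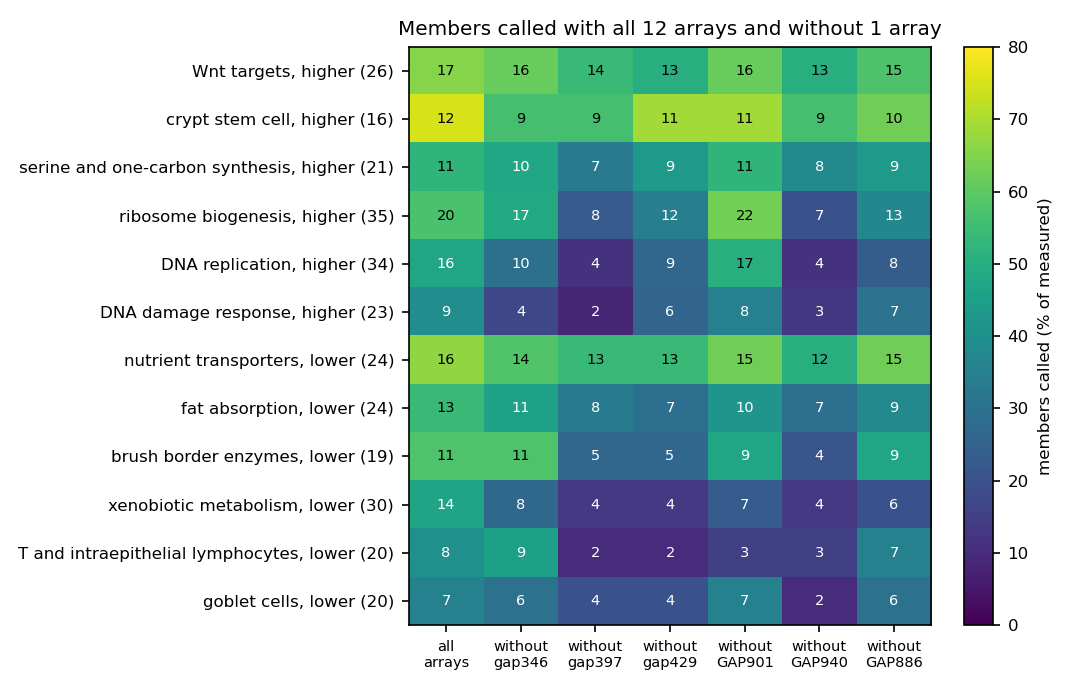
Number of members called in the stated direction for each gene list (rows) in the fit of all 12 arrays and with each double-deficient or p53-deficient array left out (columns), with the count in each cell and colour for its share of the measured members. Wnt target counts stayed between 13 and 17 and transporter counts between 12 and 16, while DNA replication fell from 16 to 4 without gap397 or GAP940.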

How the data were processed

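Small intestine RNA was hybridised to 12 Affymetrix MOE430_2 arrays, 3 for each of 4 genotypes, and the double-deficient and p53-deficient arrays were compared. Groups come from the labels. The authors deposited signal intensities before normalisation, with a detection p-value for each probe set and array. No source used here names the software that made them. They also deposited a normalised table, whose score for each array is the log signal less the array mean, divided by its standard deviation, after global geometric mean normalisation in MaxD/View. It served only as an alternative. The names of the detection columns of the double-deficient group do not tell which of its 3 arrays each belongs to, so detection there was only counted over the group.

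Probe sets entered with a detection p-value under 0.2 on at least 1 array (36336, without controls), signals under 1 (895 of them) were set to 1, and log2 values were centred on each array mean. Differences were fitted with limma 3.58.1 in R 4.3.3 over all 12 arrays, with 1 mean per genotype, Benjamini-Hochberg adjustment over all probe sets and a threshold of 0.05. The methods use SAM for other pairs of genotypes and do not describe this comparison. A platform table gave 1 gene symbol for 27536 probe sets, several for 754 and none for 8046, and Trp53 was named from the descriptions in the signal table. Of several probe sets to a gene, that with the greatest average log2 signal across all 12 arrays stands for it, with those ending in _s_at or _x_at as a last resort. For many genes only some probe sets were called, as 1 of 2 for Tnfrsf11b, Nop16, Mme and Tac1 and 2 of 4 for Rian and Hmga2. Not all such genes are marked in the text. Signals are printed after scaling. Counts of a list are over its measured members, with no set test.

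Genes were named by rule: the 14 largest increases and 12 largest decreases among detected, called genes without overlap, up to 5 members of each list, and genes the study discusses, with a few further list members given beside them after their values were seen. The members, lists and tests were chosen with earlier results of these data known. Promoter windows are from RefSeq (GRCm38.p6). In simulated data of the same 36336 probe sets, 100 were changed by 1 log2 unit, 100 by 2 and no others. The fit called 9 and 55 of these. The measured data held far more calls, which eases the adjustment, so these shares do not carry over. Alternatives were other scalings, screens, floors and variance models, the compared genotypes alone, and the omission of arrays. Array number limits the precision, and p-values measure only the spread between these arrays.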

Additional observations from a re-analysis of the deposited data

Results flagged for a closer look

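The effect of Apc loss differed between p53-null and p53-proficient intestines for 4 probe sets, by the limma test of the difference itself with Benjamini-Hochberg adjustment. None was explored further, and no cause was tested. Asrgl1, an asparaginase-like enzyme, read 72.4, 91.7 and 91.2 in double-deficient and 65.9, 78.6 and 74.2 in p53-deficient intestines, against 198, 179 and 157 in Apc-deficient and 12.9, 9.94 and 18.4 in control intestines. The difference of its effects was -3.52 log2 units (adjusted p = 0.0233). It was detected on 1 of the 12 arrays. Zfp81, a zinc finger protein, ran from 18.7 to 23.1 on the 6 p53-null arrays, from 19.2 to 42.2 in Apc-deficient and from 3.44 to 4.2 in control intestines (difference -3.26, adjusted p = 0.0498). It was detected on 1 double-deficient, 2 p53-deficient, 1 Apc-deficient and no control array. Its control signals lay below the lowest signal of any probe set detected on all control arrays (8.86 to 12.8). A probe set without a gene symbol lay between 21.5 and 34.8 on the p53-null arrays, between 2.03 and 2.81 in Apc-deficient and between 41 and 93.1 in control intestines (difference 4.27, adjusted p = 0.031). It was detected on 1 p53-deficient array alone.

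A probe set of Eif1ax, a translation initiation factor, was detected on all arrays but those of the control. It read 358, 297 and 285 in double-deficient and 185, 142 and 158 in p53-deficient intestines, so that the groups did not overlap (log2 0.96, adjusted p = 0.0268), and 295, 295 and 412 in Apc-deficient against 20.4, 30 and 26.2 in control intestines. The difference of the effects was -2.75 log2 units (adjusted p = 0.0448). In all 4 the p53-deficient level lay apart from that of the controls.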

How the results depend on the processing

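The count of 3295 probe sets called with Apc loss in p53-null intestine became 2173 (1021 higher) with the compared genotypes alone, and 649 (313 higher, 336 lower) without gap429 and d5wt_474u together. Unscaled signals gave 3579 higher and 635 lower, and setting signals under 20 to 20 gave 2564 higher. Of Apc loss with p53 present 9594 were called, 5551 with the compared genotypes alone and 5388 without gap429 and d5wt_474u. The 4 probe sets of the difference of effects became 11 in the deposited table, 12 with quantile normalisation, 11 with signals under 20 set to 20, 2 with a variance trend, 2 over detected probe sets only, 4424 without scaling and 0 without gap429 and d5wt_474u (limma, 3272 at an unadjusted p under 0.05). With each array left out in turn the counts ranged from 1106 to 3608 (468 to 1863 higher and 629 to 1745 lower), from 5474 to 9287 with p53 present, and from 0 to 111 for the difference. The cause was not tested. Of 167 called named genes, 65 were called in each of the settings in which they were refitted (21, or 20 for genes detected throughout neither group), and none of the 272 named genes reversed with its call. The call was lost by 100 without gap429 and d5wt_474u together, 74 without gap397, 65 without GAP940 and 61 without gap429. No paired analysis was possible because the labels give the genotypes no shared replicate numbers. A difference of 1 log2 unit was seldom recovered in simulated data, in which far fewer probe sets were changed than the 3295 called here. With few changes the adjustment is stricter, so the share recovered does not carry over to these data. How many differences of that size were missed here was not tested, and the absence of a call is not read as no change.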

Other observations

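Ion transport genes moved both ways, with 6 of 26 called higher and 7 lower in double-deficient than in p53-deficient intestines (4.83% and 6.46% of all genes). Slc26a3, the chloride bicarbonate exchanger of villus cells, read 298, 223 and 188 against 1075, 1097 and 783 (log2 -2.07 ± 0.30, adjusted p = 0.0044 in limma). Kcnq1, a potassium channel, went the other way, at 1133, 1769 and 1360 against 352, 398 and 460.4 (log2 1.80 ± 0.23), and both kept their calls in each alternative. Cftr, the chloride channel of crypt cells, was 1.32 units higher, a call lost without d5wt_323u, gap397, gap429, GAP901, GAP940 or GAP886. Of 10 genes of the ileum 3 were lower, among them both chains of the basolateral bile acid exporter, Slc51a at 445, 453 and 324 against 1900, 2655 and 1393 (log2 -2.25 ± 0.35) and Slc51b (log2 -2.43 ± 0.42, lost without gap429 and d5wt_474u together). Of 23 adhesion and keratin genes 2 were higher and 4 lower. Krt23 was detected on every double-deficient and no p53-deficient array, at 561, 902 and 894 against 100.2, 165 and 102 (at least 6.44-fold), while Krt20, the keratin of differentiated cells, fell by 1.64 log2 units, also lost without that pair of arrays.

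Tnfrsf12a, the receptor for the cytokine TWEAK, had the largest difference among the 16 measured genes of the TNF receptor family, of which 4 were called higher and 3 lower. It read 598, 1570 and 1012 against 12.9, 39.3 and 16.2, a difference of at least 48.7-fold (adjusted p = 0.000747). Being detected on 2 double-deficient arrays it lay outside the detected genes. Btc, which encodes the EGF receptor ligand betacellulin, stood at 623, 849 and 602 against 164, 137 and 125 (log2 2.27 ± 0.27), and Hmga2, a chromatin protein of fetal tissues, at 154, 200.1 and 220 against 52, 58.2 and 35.6 (log2 1.99 ± 0.30). Neither pair of groups overlapped. Hmga2 was 1 of 2 called higher among 9 oncofetal genes measured (22.2%), with 1 lower (11.1%) and a median log2 difference of -0.48. The lower one was Afp, at -1.89 units. That call was lost without GAP940, with the compared genotypes alone and without gap429 and d5wt_474u together. Among 25 imprinted genes 3 were higher and none lower. Beside Kcnq1 these were Meg3 and Rian, non-coding RNAs of 1 imprinted cluster, at 991, 753 and 1173 against 105, 108 and 151 for Meg3 (log2 3.00 ± 0.55, adjusted p = 0.00982) and 428, 239 and 345 against 85.2, 89.7 and 127 for Rian (log2 1.73 ± 0.34). With p53 present they differed by 1.06 and -0.20 units, neither called, and the difference of the effects passed for neither. The calls of both were lost without gap429 and d5wt_474u together, and that of Rian without GAP940. Mmp2, a matrix protease of stromal cells, was lower on all 3 double-deficient arrays, at 209, 153 and 235 against 594, 712 and 634 (log2 -1.72 ± 0.24).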
